A study of Drosophila melanogaster with 3 samples.

Results

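The genes CG14100, CG11050, Ugalt, px, Art3, CG8320 and Tcs5 lie at 7 of the 10 strongest chromatin immunoprecipitation (ChIP-seq) peaks of the nuclear receptor Hr3 in Drosophila melanogaster embryos. They were chosen by signal, as the genes whose transcription start sites are nearest to the highest values of the authors' peak caller in the reproducible list, which holds 5357 peaks; the annotation holds 13945 protein-coding genes. The peaks nearest to cbt, Chro and CG46321 share those 10 ranks and are not described here. The signal of the 7 peaks is therefore a description and no test was made on it. All samples form 1 group of 3 biological replicates, whole embryos of both sexes collected at 0 to 24 h from a transgenic line that stably carries Hr3 with green fluorescent protein (GFP) at its C-terminus, precipitated with an antibody against GFP. No other condition was analysed here, and neither was the control library that the labels name, so how much of a peak depends on Hr3 was not tested. In whole embryos the cell types that contribute to a peak cannot be told apart.

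Hr3, also called Hr46, is induced by the steroid hormone ecdysone, acts between the early and the late genes of the hormone response and is the fly relative of the mammalian ROR receptors, which bind DNA as monomers at an AGGTCA sequence with an AT-rich 5′ extension. Ugalt encodes a transporter that moves UDP-galactose into the Golgi for glycan synthesis. Art3 encodes a protein arginine methyltransferase. Tcs5, also known as Prpk, is the fly counterpart of the yeast kinase Bud32, a subunit of the KEOPS complex that takes part in making the threonylcarbamoyl modification of transfer RNAs. The px gene encodes plexus, a nuclear matrix protein that restricts wing vein formation. The products of CG14100, CG11050 and CG8320 are named as uncharacterized proteins by RefSeq.

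The DNA under the peaks is shown first, since 4 of the 7 summits shared a 9-base sequence, CTACGCCCA, at almost the same distance. The windows reach up to 100 bp to either side of the summit, stop short of the nearest annotated exon and are read on the plus strand of dm6 from 5′ to 3′. Capitals mark matches to CTACGCCCA on either strand with at most 1 mismatch. The window of CG14100 is chr3L:19590525-19590715 with the summit at base 91, that of Ugalt is chrX:2703853-2703997 with the summit at base 45, and that of Tcs5 is chr3L:5139400-5139600 with the summit at base 101. Art3, at chr3R:15229430-15229630 with the summit at base 101, and CG11050, at chr2L:6612641-6612780 with the summit at base 70, are shown as windows without a match. The windows at px and CG8320 are not shown.
CG14100: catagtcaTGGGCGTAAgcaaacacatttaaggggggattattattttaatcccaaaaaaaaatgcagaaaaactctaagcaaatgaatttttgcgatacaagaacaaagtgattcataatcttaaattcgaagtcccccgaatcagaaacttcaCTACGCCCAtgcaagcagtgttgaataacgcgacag
Ugalt: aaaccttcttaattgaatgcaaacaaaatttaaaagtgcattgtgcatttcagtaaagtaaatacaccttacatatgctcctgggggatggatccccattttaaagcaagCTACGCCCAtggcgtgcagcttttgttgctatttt
Tcs5: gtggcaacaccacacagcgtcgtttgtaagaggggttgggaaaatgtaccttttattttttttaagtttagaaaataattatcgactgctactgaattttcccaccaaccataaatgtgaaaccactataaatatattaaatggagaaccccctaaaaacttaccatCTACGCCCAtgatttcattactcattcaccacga
Art3: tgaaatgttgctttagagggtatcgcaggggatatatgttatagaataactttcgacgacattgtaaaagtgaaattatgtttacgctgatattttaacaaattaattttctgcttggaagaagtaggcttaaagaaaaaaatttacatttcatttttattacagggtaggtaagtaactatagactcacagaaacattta
CG11050: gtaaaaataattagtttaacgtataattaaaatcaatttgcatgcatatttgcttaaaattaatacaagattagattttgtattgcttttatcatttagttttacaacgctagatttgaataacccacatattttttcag

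In CG14100, Ugalt and Tcs5 the exact CTACGCCCA lay to the right of the summit on the plus strand, and in CG8320 to the left on the minus strand, so that it pointed away from the summit in each. Its centre was 69 bp from the summit at CG14100, 70 bp at Ugalt, 71 bp at Tcs5 and 73 bp at CG8320. CG14100 and CG8320 also carried a copy with 1 mismatch on the opposite side of the summit, at 78 and 64 bp, again pointing away, so these summits lay between mirrored copies. CG11050, px and Art3 had no match with at most 1 mismatch within 100 bp of the summit. At CG14100 the inexact copy was centred 13 bp upstream of the start site and the exact one 160 bp upstream. The copy at Ugalt was centred 115 bp upstream of its start site, the copy at Tcs5 48 bp upstream of the start site of the neighbour CHMP2B, and the exact copy at CG8320 21 bp downstream of its own start site, inside the first exon.

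The sequence was rare in the rest of the list. It was found after the values were seen, by counting all sequences of 6 to 8 bases that at least 4 of the 7 windows share. There were 36 of 6 bases, 8 of 7 bases and 2 of 8 bases. Those at the lowest share of all reproducible summits, 3.02%, 1.16% and 0.373%, were all parts of CTACGCCCA. Its low share is thus what set it apart from the other candidates and is not a separate result. The following is a description with no test. Within 100 bp, CTACGCCCA lay at 4 of the 7 summits against 9 of the other 5350, and at 0.243% of all reproducible summits. With at most 1 mismatch it was again at 4 of the 7, against 2.21% of the other summits and 2.28% of all. Outward copies on both sides, as at CG14100 and CG8320, were found at 4 of the other 5350 summits. With CG14100 and CG8320 included, they were at 0.112% of the whole list. Promoter windows, the 201 bp that end at each protein-coding start site, held the exact sequence in 0.135% and the inexact one in 2.00% of cases.

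The 7 bases CTACGCC at its core were more frequent among strong peaks than among weak ones, also without the 7 genes. They lay within 100 bp of 4 of the 7 summits, against 1.16% of all reproducible summits and 0.914% of the promoter windows. Without the 7 peaks, 8 of the other 93 peaks to rank 100 held them, 8.60%. The share was 2.50% at ranks 101 to 500, where 10 of 400 did, 1.00% at ranks 501 to 2000 and 0.745% at ranks 2001 to 5357. The outward direction was also seen there. Of the 46 matches centred 50 to 110 bp from the other summits, 35 pointed away and 11 towards the summit, and to rank 500 it was 14 of 17. At 0 to 49 bp, 16 of 26 pointed away, and 4 of 6 to rank 500. At 111 to 200 bp, 29 of 59 pointed away, and 6 of 10 to rank 500. This distance range was chosen after the members' distances were seen. A run of 4 cytosines lay in the 25 bases before CTACGCC, on its 5′ side, at CG14100, Ugalt and Tcs5, with 15, 13 and 14 bases between them. Of the 58 other summits with CTACGCC, 25 had such a run, and 0.523% of all reproducible summits held both. CG8320 had no such run. The run and its search range were not planned and were set after the members' windows were seen.

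**Figure D1:**
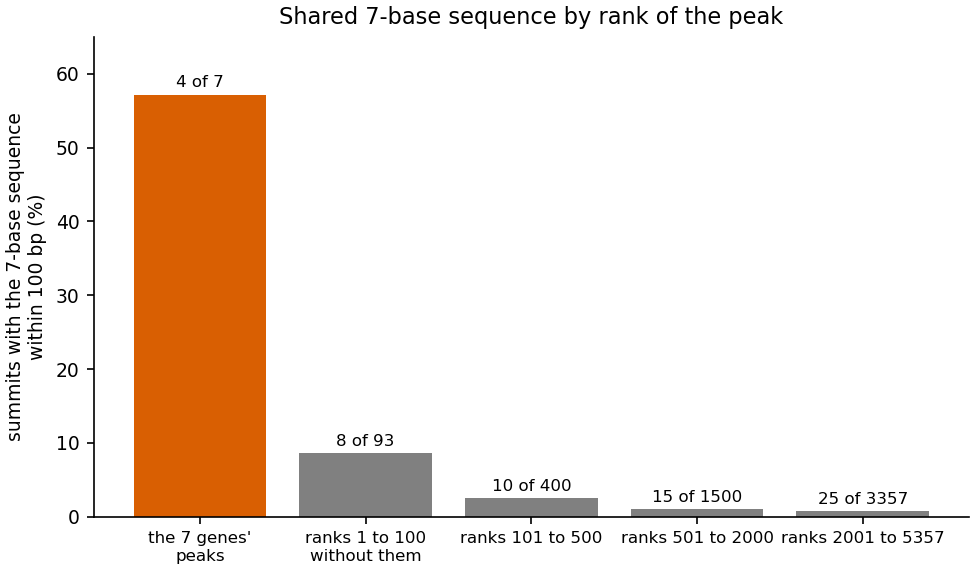
Share of summits (vertical axis, percent) with the 7 bases CTACGCC within 100 bp on either strand, for the peaks of the 7 genes and for the other reproducible peaks in 4 classes of rank by the authors' signal (horizontal axis). The share was 57.1% at the 7 genes, where 4 of 7 held it, and 8.60%, 2.50%, 1.00% and 0.745% in the other classes from strong to weak.

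The receptor's own sequence was not found at any of the 7 summits. Within 100 bp, 0 of the 7 held the ROR response element, which 1.29% of all reproducible summits and 0.530% of promoter windows held. The 6 bases AGGTCA were likewise at 0 of the 7, against 4.72% of reproducible summits and 3.67% of promoter windows. With shares this low, 0 of 7 is near the background for both and does not set these summits apart. No match says only that these letters are not in the windows searched. Sequences of core promoters and insulators were searched in the same windows. TATCGATA, the DNA replication-related element of housekeeping promoters, the Motif 1 core GGTCACAC, Ohler motifs 6 and 7, the E-box CAGCTG and the CTCF core AGGNGGC were at 0 of the 7 summits. In the reproducible list they were at 3.92%, 2.15%, 0.709%, 5.69%, 7.60% and 4.80% of summits, and in promoter windows at 6.21%, 3.33%, 1.56%, 5.46%, 12.0% and 6.07%, so that 0 of 7 is near the background for each. With 200 bp on either side of the summit, 2 of the 7 held the E-box, 2 the CTCF core and 1 Ohler motif 7. The shares above are for 100 bp and cannot be set against these counts from wider windows. CGATA, the core bound by the insulator protein BEAF-32 and part of TATCGATA, was at 3 summits, those of CG14100, Art3 and Tcs5, against 29.5% of the list and 36.6% of promoter windows. TATAAA was at Tcs5 alone, against 40.0% and 33.6%, and GAGAG at px alone, against 19.6% and 25.3%. Of the 5 core promoter elements TATCGATA, Motif 1 core, Ohler motifs 6 and 7 and TATAAA, 1 of the 7 summits held any, against 47.0% of all reproducible summits. TATAAA alone was at 40.0% of that list, which includes summits away from promoters. The share of promoter windows with any of the 5 is not given, so no lack of these elements is read from this count.

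Signals were compared between replicates after division by the replicate's median over the reproducible peaks, which was 40.4, 81.2 and 68.6 in replicates 1, 2 and 3; this gives the relative signal, in which the median peak has a value of 1. The sequencing depth is unknown, since the files hold peaks and not reads. CG14100 stood above the other 6 genes in every replicate, with relative signals of 15.9, 14.9 and 16.3 in replicates 1, 2 and 3, a mean of 15.7 ± 0.730 (SD, n = 3). Its ranks among the relaxed peaks of each replicate, which keep weak peaks, were 1, 2 and 2. Ugalt had 12.6, 11.6 and 12.5, a mean of 12.2 ± 0.538 (SD, n = 3). CG11050 had 11.4, 12.4 and 12.5, a mean of 12.1 ± 0.600 (SD, n = 3). The values of these genes overlapped, so Ugalt and CG11050 did not differ beyond the spread of their replicates.

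The remaining 4 genes followed closely. The intronic start site of px had 11.8, 10.7 and 11.8 in replicates 1, 2 and 3, a mean of 11.5 ± 0.647 (SD, n = 3). Art3 had 10.7, 11.3 and 11.0, a mean of 11.0 ± 0.309 (SD, n = 3). CG8320 had 10.8, 10.4 and 10.7, a mean of 10.6 ± 0.198 (SD, n = 3), the smallest spread of the 7. Tcs5 had 9.18, 10.7 and 11.0, a mean of 10.3 ± 0.972 (SD, n = 3), and was low in replicate 1, where it ranked 15 against 8 and 9 in replicates 2 and 3. Neighbours in this order overlapped in their replicate values below CG14100. Every value of Ugalt and of CG11050 lay above every value of Art3, CG8320 and Tcs5, while px overlapped with CG11050, Ugalt, Art3, CG8320 and Tcs5. All 7 peaks were among the 50 strongest of every replicate, as were 0.784% of the reproducible peaks; the choice by signal fixed this. At the border of the choice, Tcs5 had an authors' signal of 1997 at rank 10, and the peak at rank 11, intergenic and nearest to CG13323, had 1928 with a mean relative signal of 10.2 ± 0.102 (SD, n = 3).

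**Figure D2:**
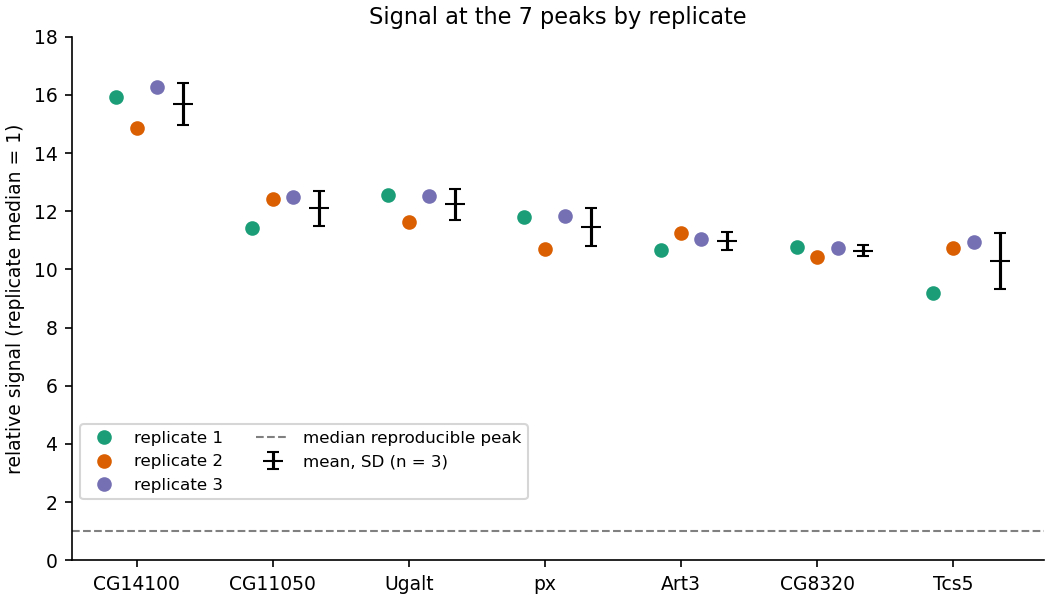
Relative signal (vertical axis, median reproducible peak of each replicate = 1, dashed line) at the strongest peak of each of the 7 genes (horizontal axis). Points are the 3 replicates and the black marks beside them the mean with the SD; CG14100 lies at 14.9 to 16.3 and the other 6 genes between 9.18 and 12.6.

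**Figure D3:**
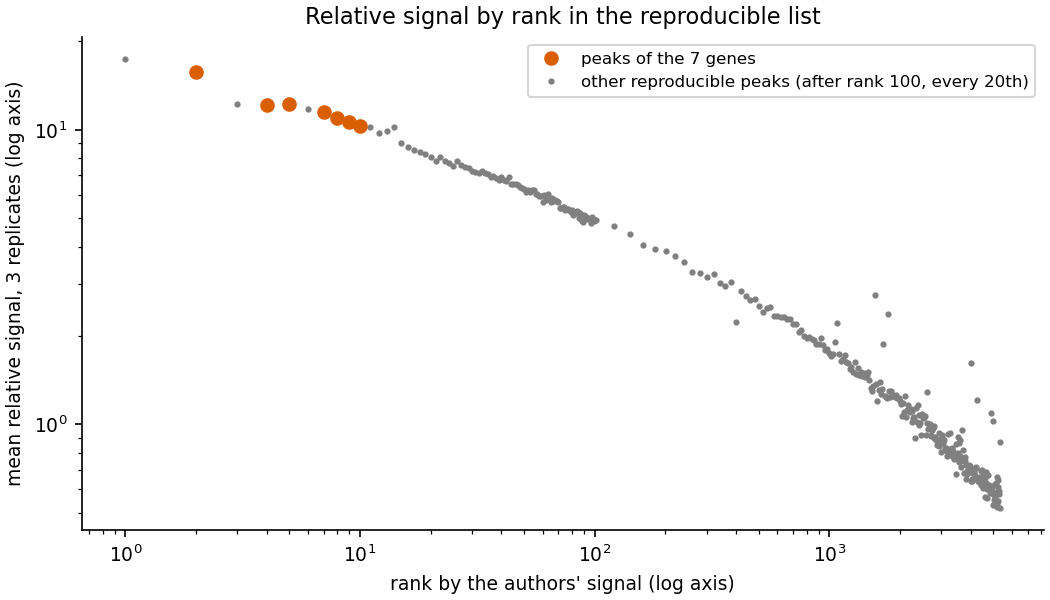
Mean relative signal over 3 replicates (vertical log axis) against rank by the authors' signal (horizontal log axis) for the peaks of the 7 genes and for other reproducible peaks, each to rank 100 and each 20th after that where all 3 replicates gave a value. The 7 peaks lie between 10.3 and 15.7 at ranks 2 to 10, among peaks of similar height at neighbouring ranks.

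The position of these summits hardly moved between replicates. The replicate summit farthest from the reproducible one was 1 bp away at CG14100, 3 bp at Ugalt, 7 bp at Art3 and at Tcs5, 11 bp at CG8320, 12 bp at px and 16 bp at CG11050. The median of these largest offsets was 7 bp, against 43 bp at the other reproducible peaks found in each replicate. The coefficient of variation of the relative signal ran from 1.86% at CG8320 to 9.44% at Tcs5, with a median of 4.65%, against a median of 16.0% at the other peaks. Both measures come from the replicates behind the ranking, so they are given as a description of peaks chosen for strength.

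By position, 6 of the 7 main summits lay at a promoter, within 500 bp of a start site of the gene itself, against 51.5% of all reproducible summits within that distance of any start site. A main summit had to lie in its gene or within 2 kb of it, a limit that the share over all summits does not have. At CG14100, Ugalt, Art3, Tcs5 and px they lay upstream of the start site, by 91, 45, 122, 105 and 199 bp. At CG8320 the summit lay 94 bp downstream. The distance to the nearest start site thus ran from 45 to 199 bp at the 6 promoters, against a median of 134 bp at the other promoter summits. Of the promoter summits in the list, 84.9% lay upstream of the nearest start site and 70.0% within 200 bp of it.

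At 4 of the 7 genes the start site was paired with that of a neighbour facing the opposite way, at most 1000 bp apart. All of these were among the 6 genes with a promoter summit. The nearest start site was so paired at 47.9% of the promoter summits in the list. The start sites of Art3 and mRpS10, which encodes a protein of the small subunit of the mitochondrial ribosome, were 257 bp apart, on arm 3R, and the summit lay between them, 122 bp from Art3 and 135 bp from mRpS10. The peak ran from 15229314 to 15229763. Those of Tcs5 and CHMP2B, which encodes a subunit of the membrane-remodelling ESCRT-III complex, were 224 bp apart on arm 3L, and the summit lay 105 bp from Tcs5 and 119 bp from CHMP2B, in a peak from 5139306 to 5139711. The naming by the nearest start site thus rests on differences smaller than 20 bp in both.

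Ugalt and eIF2Bbeta, which encodes a subunit of the exchange factor of translation initiation factor 2, were 719 bp apart on the X chromosome. Here the summit lay 45 bp from Ugalt and 674 bp from eIF2Bbeta, in a peak from 2703659 to 2704121. CG8320 and Pex11ab, which encodes a peroxin that acts in peroxisome division, had start sites only 33 bp apart on arm 2R. The summit was outside this gap, 94 bp into CG8320 and 127 bp from Pex11ab, in an intron between the exons of the 5′ untranslated region of CG8320; the peak ran from 15992287 to 15992711. Within 2 kb of the 7 summits lay start sites of 7 other genes, 6 of them protein-coding. Beside these 4 neighbours they were CG34316 and the antisense RNA gene asRNA:CR43471, at 1055 and 1973 bp from the summit at Art3, and CG8314, at 1216 bp from the summit at CG8320.

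CG14100, px and CG11050 had no start site of another gene within 2 kb of the summit. The peak at CG14100 ran from 19590401 to 19590856 on arm 3L, in the interval between its start site and the last exon of ash1, a histone methyltransferase gene on the same strand that was named after its position was seen. The px gene spans 67769 bp on arm 2R and has 3 start sites, and the peak, from 22514088 to 22514536, lay upstream of the most internal one, in an intron of the longer transcripts. CG11050 was the 1 gene of the 7 whose main summit was not at a promoter: its peak, from 6612482 to 6612932 on arm 2L, lay inside the gene, 1023, 1304 and 1699 bp downstream of its 3 start sites.

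**Figure D4:**
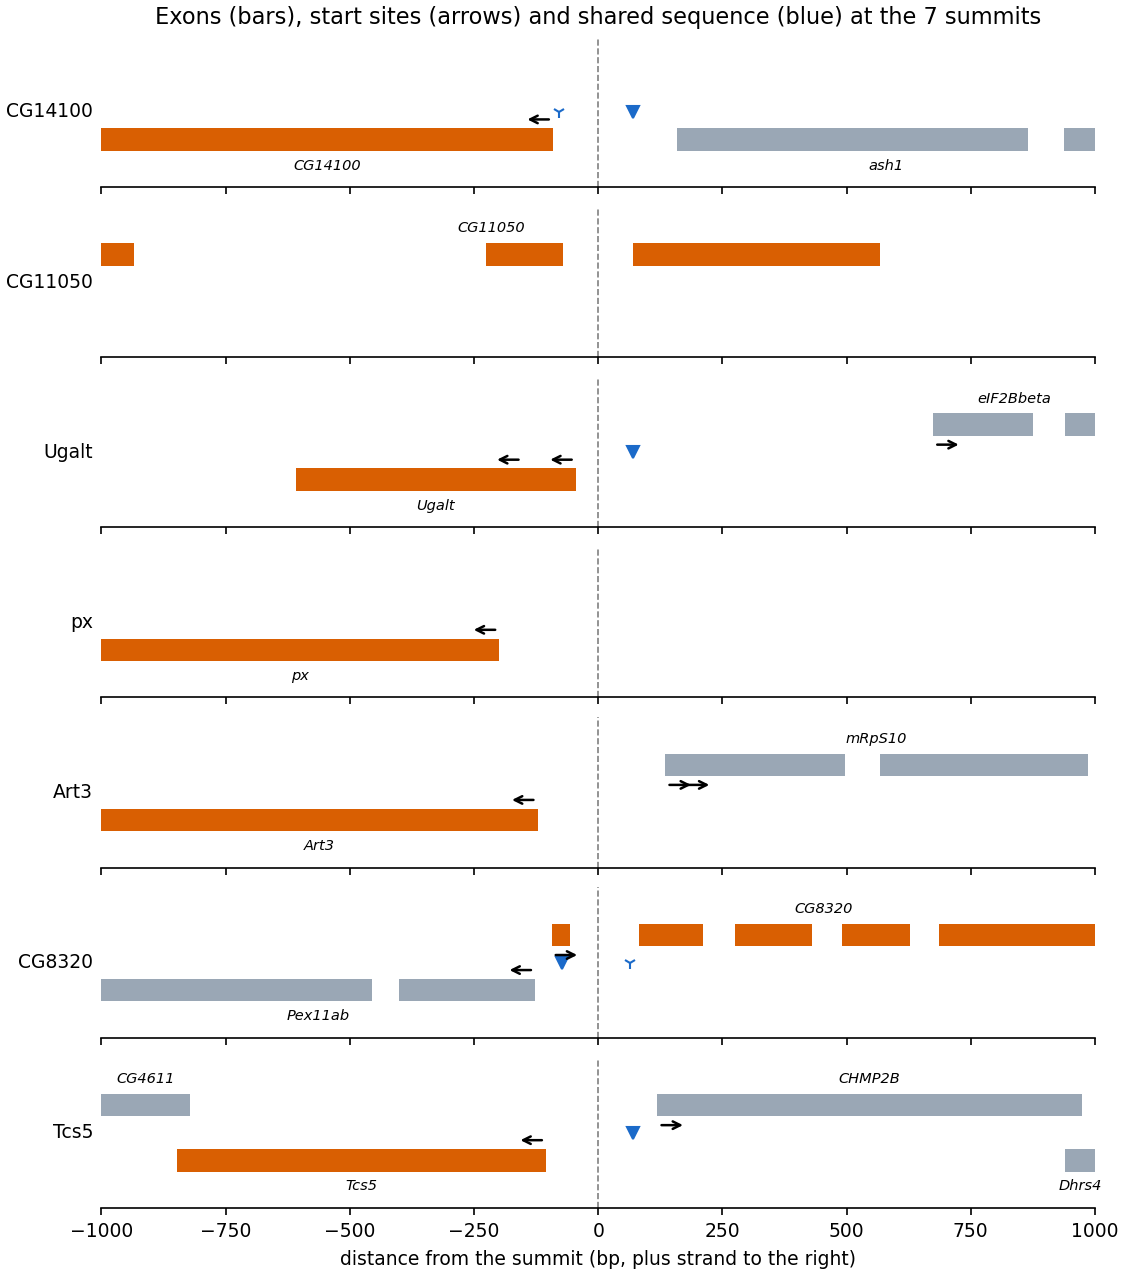
Distance from the summit in bp, with the plus strand to the right (horizontal axis), for each of the 7 genes (rows). Bars are exons, orange for the gene of the row and grey for neighbours, in the upper part of a row for the plus strand and the lower for the minus strand; arrows are start sites, blue triangles exact copies of the shared 9 bases and blue forks copies with 1 mismatch. The exact copies lie 69 to 73 bp from the summit, and the summits of CG11050, Art3 and Tcs5 lie near the middle of a gap between exons.

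Of the 7 peaks, 5 sat in short gaps between exons. At CG11050 the summit was in an intron of 140 bp, shown whole above from its 5′ gt to its 3′ ag, 70 bp after the end of one coding exon and 71 bp before the start of the next. At CG8320 the intron was 138 bp long, with the flanking exons starting 57 and 82 bp away. The exon-free stretch measured 223 bp at Tcs5, 248 bp at CG14100 and 256 bp at Art3, and it was longer at Ugalt, with 718 bp, and at px, with 20745 bp. Thus 5 of the 7 summits were in an exon-free interval of at most 300 bp, against 11.2% of all reproducible summits; the median length was 248 bp at the 7 summits and 2613 bp at the other summits outside exons. Within these 5 intervals the closer exon was 36.5% to 49.6% of the interval away, with a median of 46.9%, with 50% being the middle, against a median of 33.7% for the 597 other summits in such intervals. At most 200 bp, it was 2 of the 7 against 4.09% of all reproducible summits, and at most 500 bp, 5 of the 7 against 22.5%. The shares over all reproducible summits include those away from promoters and the 10.7% that lay in an exon. A share among promoter summits alone was not taken, so the part of promoter position in these counts was not tested. The length of 300 bp was chosen after the values were seen, and no test was made.

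On average the GC content was lower at the summits than 100 bp to either side. Over 51 bp at the summit it was lowest at CG11050, with 19.6%, and 25.5% at Art3 and at CG8320, 27.5% at Ugalt and at px, 31.4% at CG14100 and 37.3% at Tcs5. The mean was 27.7%, against 31.8% at the other reproducible summits. At 100 bp to the left and right the 7 means were 50.1% and 44.8%, against 37.6% and 38.4% at the others. Exon sequence begins within 100 bp of the summit on both sides at CG11050 and CG8320, and on the left only at CG14100 and Ugalt. At Tcs5 it begins at 105 and 119 bp and at Art3 at 122 bp, still inside the 51-bp windows centred at 100 bp. The windows centred at 100 bp to the right held no exon at CG14100, Ugalt and Art3. Their GC content was 43.1%, 47.1% and 29.4%. At px the closest exon was 199 bp away, and GC content was 58.8% to the left and 45.1% to the right. The part of exon sequence in the rise was not tested. Over 201 bp the 7 summits had a median GC content of 36.3%, against 33.3% at the others.

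**Figure D5:**
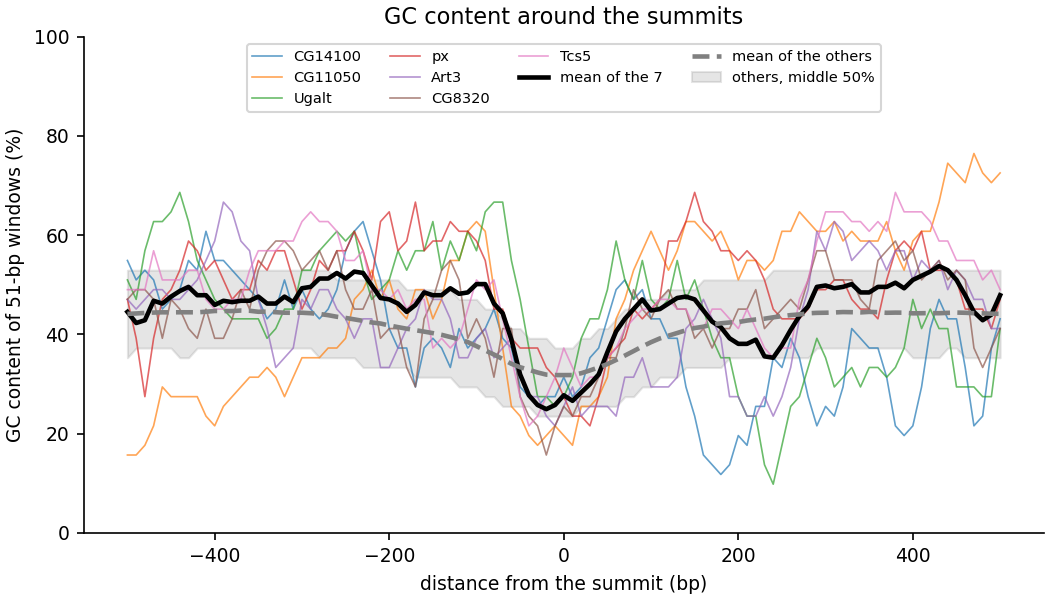
GC content of 51-bp windows (vertical axis, percent) against the distance from the summit in bp (horizontal axis) for the 7 peaks (thin lines, black for their mean) and for the other reproducible peaks (dashed grey mean, shaded middle 50%). At the summit the means are 27.7% for the 7 and 31.8% for the others, and 100 bp to the left 50.1% and 37.6%.

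Other peaks near these genes were few and weak at 4 of the 7 and more numerous at px. With 2 kb on either side of the gene, CG14100, Ugalt, Art3 and Tcs5 held no reproducible summit but the main one, and their pooled relaxed lists held none either. Of all protein-coding genes, 39.4% had at least 1 reproducible summit in this range and 24.9% exactly 1. The 7 genes all have a summit by choice, so the like share is that among genes with a summit. Of those 5496 genes, 3468 had exactly 1, and 4 of 7 is near that share. The relaxed list of replicate 2 had 1 further weak peak at each of Ugalt, Art3 and Tcs5, with relative signals of 0.171, 0.195 and 0.203. These lay 3032, 3915 and 1867 bp from the main summits, and replicates 1 and 3 had none.

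CG11050 and CG8320 held 2 reproducible summits each and px held 6, of 14 in the 7 loci, against a median of 1 for the other protein-coding genes with a summit. The pooled relaxed list held 30 at px, 3 at CG11050 and 3 at CG8320. In replicates 1, 2 and 3 the relaxed lists held 32, 31 and 24 at px, 6, 3 and 3 at CG11050, and 2, 3 and 2 at CG8320. The second summit of CG11050 lay 1855 bp upstream of the main one, outside the gene and less than 500 bp before its first start site, and thus at a promoter, with relative signals of 0.619, 0.984 and 1.00 in replicates 1, 2 and 3. At CG8320 the second summit lay 1160 bp from the main one, between Pex11ab and CG8314. It was less than 500 bp upstream of the start site of CG8314, and thus at the promoter of that gene. Its relative signals were 0.579, 0.507 and 0.510 in replicates 1, 2 and 3. The summits of replicates 1 and 3 fell in the untranslated part of Pex11ab. In px, the largest gene of the 7, the second-strongest reproducible summit lay 16843 bp from the main one in an intron, with 0.632, 0.891 and 0.884. Another lay 1772 bp away, with 0.799, 0.737 and 0.559. The second summits had 7.30%, 5.41% and 7.41% of the authors' signal of the main summit at CG11050, CG8320 and px.

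Genes of the same families did not stand out in the list. Of the 8 other arginine methyltransferase genes, Art4 and Art8 had a reproducible summit within 500 bp of a start site, and Art1, Art2, Art6, Art7, Art9 and csul had none. The relative signals were 0.750, 0.503 and 0.780 at Art4 and 1.38, 1.39 and 1.75 at Art8, where the nearest start site was that of dUTPase. Both lay far below Art3, which was chosen for its signal. Of the 7 other nucleotide sugar transporter genes, meigo and senju had a promoter summit, and Efr, Papst2, frc, nac and sll had none. They reached 1.36, 1.34 and 1.28 at meigo and 1.72, 1.83 and 1.82 at senju, whose summit was nearest to eIF3h. None of Tcs1, Tcs3, Tcs4 and Tcs6, named like Tcs5 for threonylcarbamoyl synthesis, had one. Together 4 of the 19 relatives had a promoter summit, against 23.9% of all protein-coding genes, a share close to the background.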

How the data were processed

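The files hold peaks of ChIP-seq with a GFP antibody from 3 biological replicates of Hr3-GFP embryos; chromatin was sonicated to 200 to 800 bp, per the labels. Per the deposited text files, the authors made relaxed peak lists for every replicate and for the pooled alignments on dm6, and a reproducible list by the irreproducible discovery rate. Aligner, peak caller and settings: not given in the sources used here. The deposited signal of a peak is the authors' value, and its scale differs between lists. The dm3 lists were not used, as no dm3 genome was at hand.

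Genes and start sites came from Ensembl release 115 (BDGP6.54), without transposable elements, and bases from the RefSeq release of the same assembly; 99.88% of 16213 annotated start codons read ATG there. Coordinates are 1-based. Python 3.11.15, NumPy 2.4.6, pandas 2.3.3 and matplotlib 3.10.9 were used. A gene's main summit was the strongest one in the gene or within 2 kb. The relaxed peak that overlaps the reproducible summit gave the value of a replicate. Both strands were searched for elements, up to 100 bp from a summit, and in the 201 bp that end at each of 19253 protein-coding start sites.

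The genes, lists and families were chosen with earlier results of these data known. Named genes were the 7, every gene with a start site within 2 kb of their summits, family members and the peaks at the border of the choice. With 1 group and genes chosen by signal, no test was made: counts stand beside the share in the whole list. The functions were checked on simulated data. Alternatives were other promoter widths, gaps, flanks, windows, ranks, scalings and lists, and leaving out each replicate.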

Additional observations from a re-analysis of the deposited data

How the results depend on the processing

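Most counts kept their value or stayed within 1.5 times of it under the alternatives tried. With only the higher-signal part of the reproducible list, 7 summits in place of 14 were left in the 7 loci. With windows of 200 bp, 3 genes in place of 1 held a core promoter element. The E-box and the CTCF core were at 2 genes each in place of 0, TATAAA at 2 in place of 1 and Ohler motif 7 at 1 in place of 0. A wider window can only gain matches, at these summits as at all others. The shares of all summits are given for 100 bp only, so these rises are not a result about the 7 genes. With windows of 50 bp, GAGAG was at 0 in place of 1. With windows of 50 bp, 0 in place of 4 held CTACGCC, whose copies were centred 68 to 72 bp from the summit. With the summits of replicate 1, 2 or 3 it was 4 each time. With exon-free intervals of at most 200 bp, 2 in place of 5 genes were counted, against 4.09% of all reproducible summits. The median relative signal of the 7 peaks was 11.5, and 38.9 when divided by the median of each relaxed list, which holds weaker peaks; without replicates 1, 2 and 3 in turn it ran from 11.3 to 11.8. The windows for CTACGCC and the interval lengths were alternatives chosen after seeing the data. No paired analysis was possible because the replicates form 1 group. The depth is unknown and limits what can be said of weak peaks.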
